A study of Mus musculus with 6 samples.

Results

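Cytokine receptors of helper T cells and the Janus kinase (JAK) and Stat signalling chain behind them were followed in naive CD4 T cells with and without Trim28. The 33 genes were given as a list of symbols grouped by function, with no value in the rule, though earlier results of these data were known when the list was made, out of 16911 genes named in the table. Each gene is represented by its transcript row with the highest total. The 6 libraries are 3 from wild-type littermates (WT1 to WT3) and 3 from mice labelled TRIM28KO (KO1 to KO3), all of the C57BL/6 strain. The sample titles of all 6 carry the label D0. Naive CD4 T cells, helper T cells before their first antigen, were enriched with magnets, sorted by flow cytometry and lysed in Trizol. The promoter or Cre that removes Trim28, the age of the mice, the sort gate and whether each library is a separate mouse could not be read from the labels, and p-values here reflect only how much these libraries differ, which may be technical. Trim28 encodes a corepressor brought to DNA by zinc finger proteins.

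A cytokine of this group brings receptor chains together at the cell surface, and the Janus kinases bound to their inner tails then phosphorylate the receptor and the Stat proteins, which move to the nucleus and bind DNA. Chains are shared: the common gamma chain Il2rg serves the receptors for interleukins 2, 4, 7, 9, 15 and 21, and gp130 (Il6st) serves those for interleukins 6 and 27. Socs proteins and Cish are made in response to the signal and shut it off, while Pias1 and the phosphatase Ptpn2 restrain Stat proteins already present. Naive T cells depend on interleukin-7 and on low-level receptor signals to stay alive, and interleukins 4, 12, 21, 27 and the interferons set the type of effector cell they become.

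Stat proteins bind the letters TTCNNNGAA, known as the gamma-activated site, and interferon-activated factors bind the interferon-stimulated response element. Windows running from 250 bases before to 50 bases after a start were available from RefSeq (GRCm38.p6, the assembly of mm10) for 25 of the 33 genes. Il27ra had no window and was not searched. TTCNNNGAA, which reads alike on both strands, was found in windows of 6 of those 25 genes (Il18r1, Il12rb2, Cish, Socs3, Ifnar2 and Ifnar1), against 9.55% of all 27025 genes with a window. The wider spacing preferred by Stat6 was found in 2 of the 25 (Il18r1 and Ifngr2), against 8.01% of all genes. The core of the response element, searched on both strands, was found in 2 of the 25 (Stat4 and Socs1) against 3.99%. The stretches below hold the matches of 3 feedback genes (Cish, Socs3 and Socs1) and of both chains of the type I interferon receptor, whose measured values are given further on; capitals mark the matched letters, and each runs 5′ to 3′ in the direction of its gene.
Cish, chr9:107296654-107296683, plus strand: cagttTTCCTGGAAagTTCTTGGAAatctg
Socs3, chr11:117969502-117969531, minus strand: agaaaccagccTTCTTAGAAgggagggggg
Socs1, chr16:10785597-10785626, minus strand: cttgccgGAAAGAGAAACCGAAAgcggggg
Ifnar2, chr16:91372558-91372587, plus strand: ctgccaaggccTTCCTGGAAgaagagagta
Ifnar1, chr16:91485199-91485228, plus strand: gggcgggggcgTTCACGGAAggggcggggc
The pair in Cish began at positions 1 and 12 counted from the annotated start, the match in Socs3 at -154, that in Ifnar2 at -214 and that in Ifnar1 at -5. In Socs1, a pair of overlapping interferon element matches began at -83 and -77. A match describes letters only, and binding was not measured.

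The libraries held 22005759 to 44372701 reads over 19048 transcript rows. Trim28, the check of the labels, was at 8429, 8287 and 9428 normalized reads in the wild-type libraries and at 738, 628 and 1247 in the knockout libraries. Of the 10 genes chosen to mark helper T cells, 9 were matched, and their summed level ran from 137541 to 140704 in the wild type and from 120362 to 127469 in the knockout. KO3 stood apart: the summed level of 9 B cell markers was 1664 there against 204 and 225 in the other knockout libraries and 185 to 354 in the wild type, and that of Cd8a and Cd8b1 was 4416 against 708 and 755 and 561 to 1065. Y-linked genes were read in WT1 and KO2, at summed levels of 13625 and 12677, and were at most 2.39 in the other 4 libraries. Results are therefore given with KO3 and without it where the difference matters.

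Most of this signalling chain, like most tested rows, was fitted near its wild-type level in knockout cells. Il27ra, the specific chain of the interleukin-27 receptor, was the only one of the 30 tested members to pass the threshold. It fell in knockout cells to 69.2% of the wild-type mean. Ifnar2, Ifngr1, Il2rb and Il12rb1 stood higher, and Il4ra and Ifnar1 lower, in every knockout library than in every wild-type library, without passing. Groups lay apart in this way for 18.8% of all tested rows. The change was 0.37 to 0.45 in size on the log2 scale for Ifnar2, Ifngr1 and Il4ra, and -0.08 for Ifnar1. For Il2rb and Il12rb1 it was 0.90 and 0.73, with KO3 far above the other knockout libraries. No Janus kinase, Stat factor or feedback gene passed. Rows were tested with limma on a log2 scale, after adding 1 to each normalized read count, for the 13022 rows averaging 10 or more; calls needed a Benjamini-Hochberg adjusted p below 0.05. In that test 1 of the 30 members was called, against 1.51% of all tested rows: 1 fell (0.315% of all rows fell) and 0 rose (1.19% of all rows rose). At an adjusted p under 0.1 Ifnar2 joined it, making 2 of 30 against 2.25%. In bulk RNA, fewer cells that express a gene and less RNA per cell cannot be told apart.

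An unadjusted p under 0.05 was reached by 6 of the 30 members (20%), against 12.7% of all tested rows. The groups did not overlap for 7 of the 30 (23.3%), against 18.8% of all tested rows. The median size of the log2 fold change was 0.12 over the members and 0.16 over all tested rows, and the signed medians were 0.07 and 0.0019. Changes of under 0.2 in either direction were fitted for 18 of the 30 members and for 7457 of the 13022 tested rows. The smallest exact two-sided permutation p that 3 libraries against 3 allow is 0.1, so single-gene exact tests could not reach 0.05 here.

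**Figure D1:**
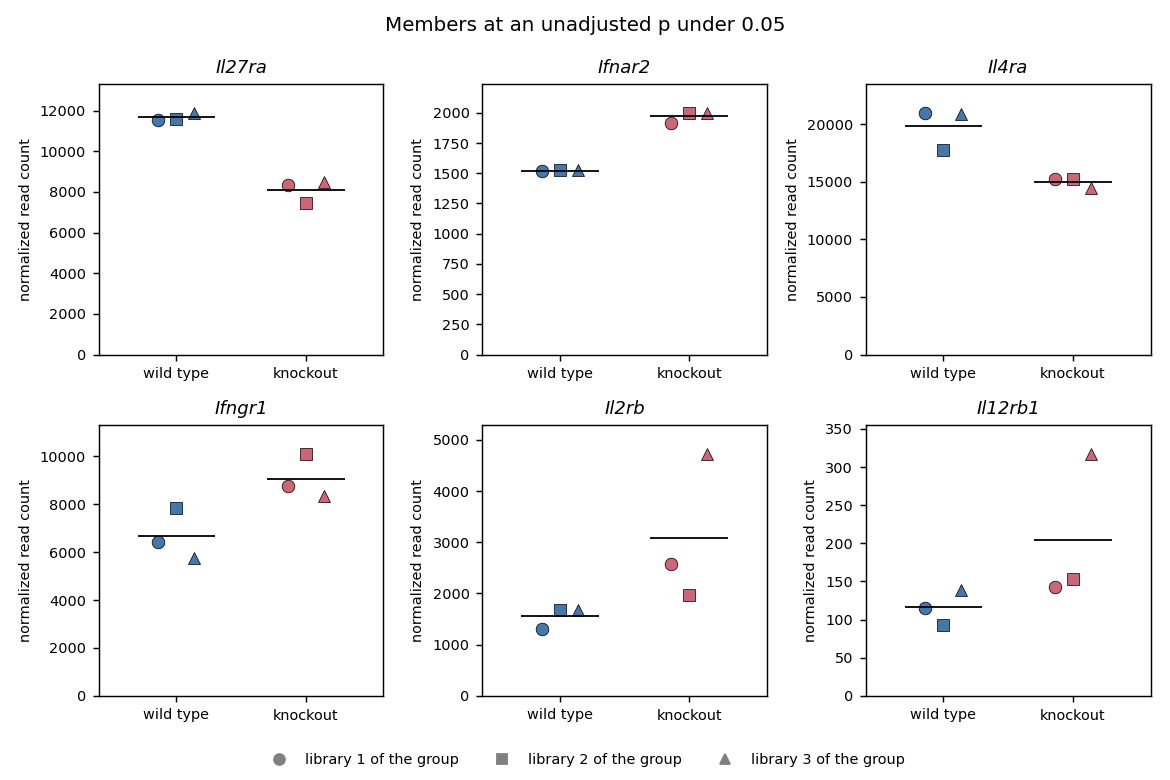
Normalized read count (y axis, from 0) of the 6 members with an unadjusted p under 0.05 in each library, wild type in blue and knockout in red, with a horizontal line at each group mean and a marker shape for the library number. The groups lie apart in all 6 panels, and in the panels of Il2rb and Il12rb1 the KO3 triangle stands well above the other knockout libraries.

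Il27ra (chr8:84030286-84042600 of mm10) pairs with gp130 and lets T cells respond to interleukin-27, which can both promote type 1 helper cells and dampen inflammation. It was at 11554, 11569 and 11894 normalized reads in the wild-type libraries and at 8335, 7439 and 8469 in the knockout libraries. The wild-type libraries lay close together, all knockout libraries lay below them, and KO2 was the lowest. On the log2 scale the difference was -0.53 (SE 0.08; n = 3 per group; limma adjusted p 0.0169). Without KO3 it was -0.57 with an adjusted p of 0.00877. Markers of other cell types were not confined to KO3. Summed myeloid cell markers were at 2033, 1265 and 1737 in WT1, WT2 and WT3. They were at 1072, 1119 and 3139 in KO1, KO2 and KO3. The part of such cells in the values of Il27ra was not tested. The call was lost without WT1 (adjusted p 0.114), WT2 (0.0926), WT3 (0.109) or KO2 (0.0698), and the fitted change then ran from -0.54 to -0.47.

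Palm3, a neighbouring gene, overlaps Il27ra by 386 bases at one end. Since the sources used here do not say whether the library kit kept the strand, reads of that stretch cannot be assigned to either gene. Palm3, named for this overlap, was at 556 ± 74.9 and 439 ± 62.6 normalized reads in the wild type and knockout (SD, n = 3 per group), a small fraction of Il27ra. The other tested genes of this stretch, from Prkaca to Rfx1, were taken by position. On the Palm3 side, Samd1 was at 1466 ± 148 and 1040 ± 27.5 (log2 fold change -0.49, limma adjusted p 0.064). Without KO3, where 4.32% of all tested rows were called, Samd1 passed (-0.51, adjusted p 0.0371). On the same side, 1700067K01Rik and Prkaca were low, with overlapping groups and log2 fold changes of -0.28 and -0.43 (adjusted p 0.853 and 0.597). On the other side Rln3, the nearest gene, was at 39.0, 33 and 38.6 in the wild type and at 12.9, 7.29 and 37.5 in the knockout. KO3 lay inside its wild-type range, and the log2 fold change was -1.20 (adjusted p 0.406). Rln3 passed only in the fit that left out KO3, the knockout library that was not lower (-1.82, adjusted p 0.0362). Rfx1, beyond Rln3, was at 1988 ± 152 and 2126 ± 622 (log2 fold change 0.06, and 0.22 without KO3). All tested genes of the stretch other than Rfx1 thus had fitted changes below 0, where the median of all tested rows was 0.0019. Only Il27ra and Samd1 had groups that did not overlap, and whether any gene differed from Il27ra was not tested.

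Il6st encodes gp130, the signalling chain that Il27ra pairs with. It was at 19166, 20956 and 18434 normalized reads in the wild-type libraries and at 26085, 23128 and 20360 in the knockout libraries. The groups overlapped, with KO3 below WT2, and the log2 fold change was 0.24 (SE 0.11, limma adjusted p 0.414). Without KO3 it was 0.33 with an adjusted p of 0.0943. The partner chains of the interleukin-27 receptor thus had fitted changes of opposite sign.

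Il12rb1 and Il12rb2, relatives of gp130, form the interleukin-12 receptor, and Il12rb1 also serves interleukin-23. Il12rb1 was at 116, 93.5 and 139 normalized reads in the wild type and at 143, 153 and 317 in the knockout. KO3 held more than 2 times the value of either other knockout library, and KO1 was only just above WT3. The log2 fold change was 0.73 (SE 0.31, limma adjusted p 0.374), and 0.36 without KO3 (unadjusted p 0.122). Il12rb2 was at 434 ± 40.2 and 451 ± 42.4 (SD, n = 3 per group), with a 95% interval for the log2 fold change of -0.23 to 0.35.

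Of the receptors built on the common gamma chain, 4 were tested and limma called 0, against 1.51% of all tested rows. Il4ra and Il2rb reached an unadjusted p below 0.05, as did 12.7% of all tested rows. Il4ra, the binding chain for interleukin-4 that also serves interleukin-13, was at 20986, 17708 and 20886 normalized reads in the wild type and at 15234, 15268 and 14434 in the knockout. All knockout libraries lay below all wild-type libraries, and KO3 was the lowest. The log2 fold change was -0.40 (SE 0.09, 95% interval -0.62 to -0.19), and the limma adjusted p of 0.103 missed the threshold. Il21r, the interleukin-21 receptor, lies 23778 bases further along chromosome 7 and was at 7316 ± 269 and 7663 ± 618 (SD, n = 3 per group; 95% interval of the log2 fold change -0.14 to 0.27).

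Il2rb, the signalling chain shared by interleukins 2 and 15, was at 1301, 1687 and 1669 normalized reads in the wild type and at 2579, 1969 and 4727 in the knockout. Each knockout library lay above each wild-type library, and KO3 was far above the other two. The log2 fold change was 0.90 (SE 0.28, limma adjusted p 0.21), and without KO3 it was 0.55 (adjusted p 0.0674). Il2rg itself was at 13614 ± 1120 and 14358 ± 2294 (SD, n = 3 per group), with overlapping groups and a 95% interval of -0.22 to 0.36.

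Summed markers of cell types known to carry Il2rb were highest in KO3 as well. The summed level of 8 natural killer cell markers was 4253 in KO3, 2719 and 3310 in the other knockout libraries and 2741 to 3347 in the wild type. Of these 8 genes, 6 were highest in KO3, while Prf1, at 1671, was lowest there and Eomes was highest in WT2. The summed level of 9 effector and memory T cell markers was 8879 in KO3, 4743 and 4768 in the other knockout libraries and 4903 to 5119 in the wild type. Of these 9 genes, 8 were highest in KO3, while Cd44 was at 68.5 there and was highest in WT1, at 89.2. The 6 regulatory T cell markers summed to 5100 in KO3, 2445 and 2491 in the other knockout libraries and 1834 to 2198 in the wild type. Foxp3, which defines regulatory T cells, was however lowest in KO3, at 2.39 against 6.97 to 11.4 in the other 5 libraries, and that list holds Il2ra and Ctla4, which are described below. No gene of the natural killer, regulatory or effector and memory lists was at 0 in any library. The part of such cells in the values of Il2rb and Il12rb1 was not tested. Il27ra and Il4ra, by contrast, did not stand apart in KO3 from KO1 and KO2.

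**Figure D2:**
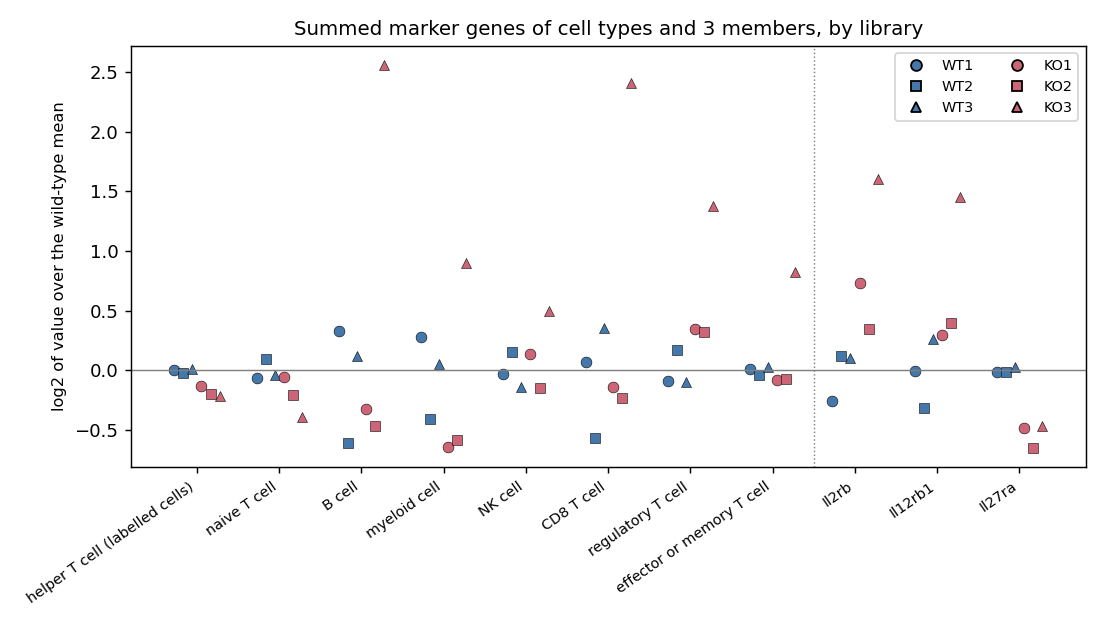
Summed normalized reads of 8 marker lists (left of the dotted line) and the reads of 3 members (right), each as log2 of the library's value over the wild-type mean, with wild-type libraries in blue and knockout libraries in red. The KO3 triangle stands highest in the B cell, CD8 T cell, regulatory and effector lists and again for Il2rb and Il12rb1, while for Il27ra all knockout libraries lie together below 0.

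Il15ra and Il9r, the specific chains for interleukins 15 and 9, were under the minimum and were not tested. Il15ra had 3, 2, 3, 8, 4 and 5 reads and Il9r 0, 0, 2, 0, 0 and 6 reads in WT1, WT2, WT3, KO1, KO2 and KO3. These counts are too low to compare.

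Of the 6 interferon and interleukin-10 receptor chains limma called 0, against 1.51% of all tested rows. Ifnar2 and Ifngr1 reached an unadjusted p below 0.05, as did 12.7% of all tested rows. Ifnar2, the chain of the type I interferon receptor that binds the cytokine most tightly, was at 1521, 1523 and 1523 normalized reads in the wild type and at 1915, 1999 and 2001 in the knockout. The wild-type libraries were nearly equal, and all knockout libraries stood above them. The log2 fold change was 0.37 (SE 0.08, 95% interval 0.19 to 0.56), with a limma adjusted p of 0.0744, and 0.36 without KO3. A second, lower row of Ifnar2 was at 103 ± 15.7 and 134 ± 19.4 (SD, n = 3 per group), or 0.38 on the log2 scale (SE 0.20, unadjusted p 0.0879).

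Ifnar2, Il10rb, Ifnar1 and Ifngr2 lie in this order within one stretch of chromosome 16, with 568 bases between Ifnar2 and Il10rb. Il10rb, which serves interleukins 10 and 22, was at 1676 ± 212 and 1731 ± 186 normalized reads (SD, n = 3 per group; log2 fold change 0.05). Ifnar1, the other chain of the type I receptor, was at 8357, 8559 and 8571 in the wild type and at 8299, 7750 and 8056 in the knockout. Its knockout values all lay below its wild-type values, but the log2 fold change was only -0.08 (95% interval -0.25 to 0.09, limma adjusted p 0.708). Ifngr2 was at 2406 ± 133 and 2537 ± 147 (log2 fold change 0.08). The 95% intervals of these 3 neighbours all included 0; whether they differed from Ifnar2 was tested only for Ifnar1, as a ratio within libraries.

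Ifngr1, the binding chain of the interferon-gamma receptor, was at 6431, 7846 and 5763 normalized reads in the wild type and at 8760, 10097 and 8335 in the knockout. The groups lay apart, though WT2 came close to KO3. The log2 fold change was 0.45 (SE 0.13, limma adjusted p 0.175), and 0.51 without KO3 (adjusted p 0.0594). Il10ra, the binding chain for interleukin-10, was at 1518 ± 40.4 and 1367 ± 251 (SD, n = 3 per group), and its knockout values ran from 1108 in KO2 to 1608 in KO3.

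Il18r1 and Il17ra bind interleukins 18 and 17 and signal through adaptor proteins, not through Janus kinases. Il18r1 was at 1505, 1911 and 1241 normalized reads in the wild type and at 1848, 2437 and 1685 in the knockout, with overlapping groups (log2 fold change 0.36, SE 0.18, limma adjusted p 0.469). Il17ra was at 11271 ± 442 and 11918 ± 761 (SD, n = 3 per group), and its 95% interval of -0.12 to 0.27 was among the narrowest here.

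**Figure D3:**
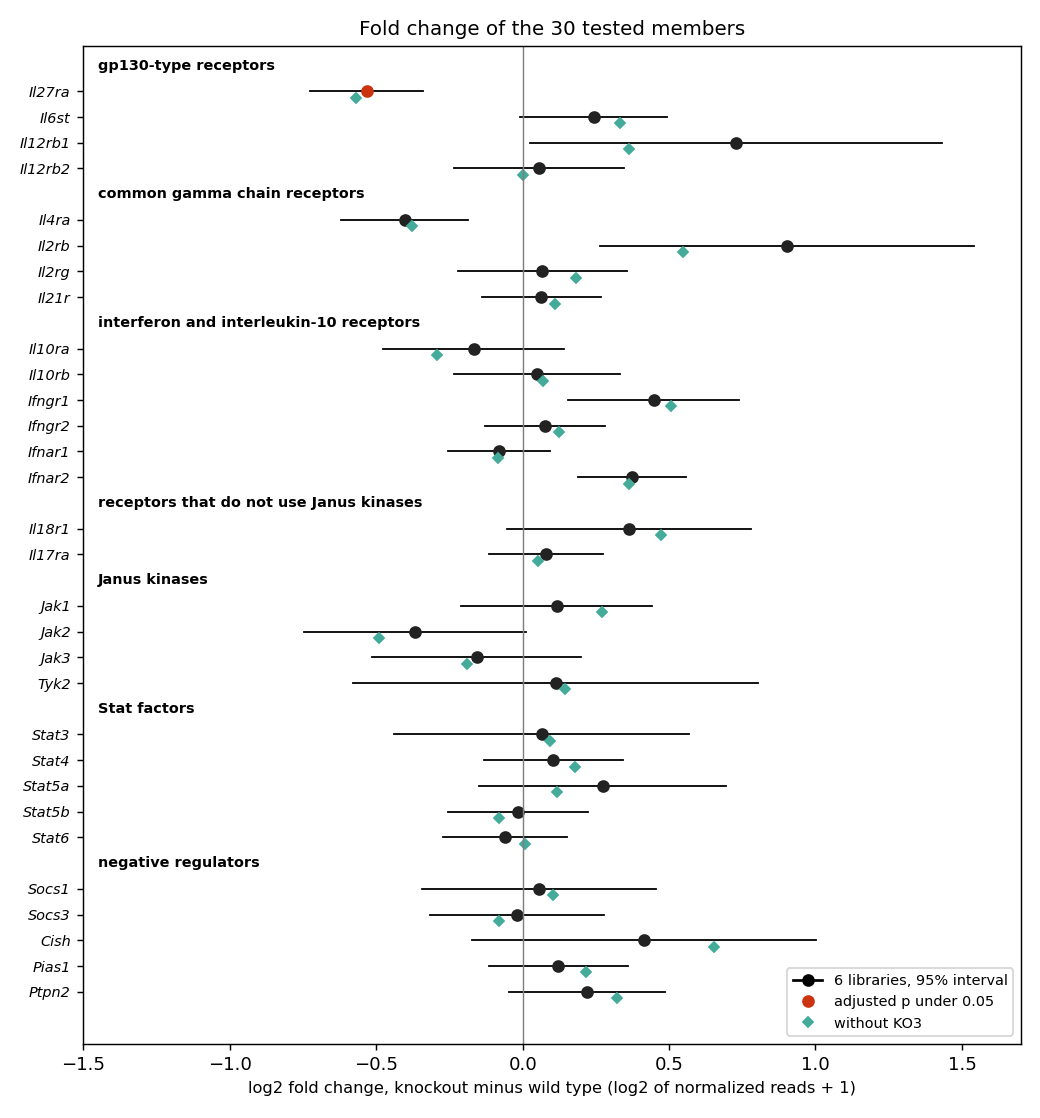
Log2 fold change of knockout over wild type (x axis) for the 30 tested members grouped by role, with circles for the fit of 6 libraries, lines for its 95% interval and diamonds for the fit without KO3. Only Il27ra, in red, passed at an adjusted p under 0.05, and the diamonds of Il2rb and Il12rb1 lie far to the left of their circles.

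The 4 Janus kinases, the enzymes bound to the receptor tails, gave 0 calls in limma, against 1.51% of all tested rows. None reached an unadjusted p below 0.05 (12.7% of all tested rows did). Jak1, which serves nearly all of these receptors, was at 48577, 51094 and 43941 normalized reads in the wild type and at 59592, 55898 and 41648 in the knockout. KO3 was below all wild-type libraries and KO1 and KO2 above them (log2 fold change 0.12, 95% interval -0.21 to 0.44). Jak2, the kinase of the interferon-gamma and interleukin-12 receptors, was at 273 ± 34.4 and 212 ± 33.9 (SD, n = 3 per group; -0.37 on the log2 scale, SE 0.17, unadjusted p 0.0559), and at -0.49 on the log2 scale without KO3 (adjusted p 0.128). Jak3, the partner of Il2rg, was at 163 ± 14.6 and 146 ± 12.7. Tyk2, which serves the type I interferon and interleukin-12 receptors, had only 17, 24, 31, 45, 16 and 32 reads in the 6 libraries, and its interval of -0.58 to 0.80 shows that a change of that size was not detectable at this depth.

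Of the 5 Stat genes limma called 0, against 1.51% of all tested rows, and 0 reached an unadjusted p below 0.05, against 12.7%. Stat6, the factor of interleukin-4, was at 12066 ± 503 and 11588 ± 1024 normalized reads (SD, n = 3 per group; 95% interval of the log2 fold change -0.27 to 0.15). Stat4, the factor of interleukin-12, was at 7571 ± 426 and 8172 ± 958 (95% interval -0.13 to 0.34). Stat5b and Stat5a, the factors of interleukins 2 and 7, lie next to each other and to Stat3 on chromosome 11. Stat5b was at 1361 ± 89.1 and 1349 ± 128, Stat5a at 143 ± 11.6 and 175 ± 36.3, and Stat3, the factor of interleukins 6 and 21, at 118 ± 18.1 and 124 ± 29.7. A second row of Stat5b was at 303 ± 24.5 and 224 ± 29.8, with groups that did not overlap, a difference of -0.44 on the log2 scale (SE 0.15; adjusted p 0.252 in limma), while the row with the highest total had -0.02.

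Of the 5 negative regulators tested, limma called 0, against 1.51% of all tested rows, and 0 reached an unadjusted p below 0.05, against 12.7%. Cish and Socs3 are switched on by Stat proteins, so their transcripts are often read as a gauge of recent signalling. Cish, whose start holds the tandem sites shown above, was at 294, 443 and 252 normalized reads in the wild type and at 527, 482 and 307 in the knockout. KO3 lay within the wild-type range, KO1 and KO2 above it, and the log2 fold change was 0.41 (SE 0.26, limma adjusted p 0.558), against 0.65 without KO3 (adjusted p 0.113). Socs3, which blocks signalling at gp130, was at 8248, 5891 and 6541 in the wild type and at 6581, 6333 and 7328 in the knockout. WT1 was the highest library, and the interval ran from -0.32 to 0.28.

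Socs1, an inhibitor of the kinases themselves, was at 129.7 ± 4.84 and 136 ± 23.4 normalized reads (SD, n = 3 per group). Ptpn2, a phosphatase acting on Janus kinases and Stat proteins, was at 879.9, 886 and 941 in the wild type and at 1189, 1070 and 911 in the knockout, with KO1 and KO2 above and KO3 inside the wild-type range (log2 fold change 0.22, limma adjusted p 0.494). Pias1, an inhibitor of Stat proteins, was at 4285 ± 225 and 4680 ± 537. Jak1, Il12rb2, Jak3 and Stat6 each overlap another gene of the table (Raver2, Serbp1, Insl3 and Nab2), whose reads cannot be told apart where strand is unknown. Socs2, a regulator of growth hormone signalling, had 0, 0, 6, 0, 0 and 6 reads in the 6 libraries and was not tested.

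Without KO3, 1 member was again called, Il27ra, against 4.32% of all rows, and 13 of 30 reached an unadjusted p under 0.05, against 21.1% of all rows. The median size of the log2 fold change rose from 0.12 to 0.19 over the members and from 0.16 to 0.21 over all tested rows. KO3 lay below both KO1 and KO2 most clearly for Cish, Jak1, Pias1, Ptpn2, Il2rg and Il6st, and above both most clearly for Il12rb1, Il2rb, Stat5a, Jak2 and Il10ra.

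Ratios of the chains of one receptor within a library do not depend on how libraries were scaled, and 10 such pairs, chosen by receptor, were compared. Il27ra reads per 100 reads of Il6st were 60.3, 55.2 and 64.5 in the wild type and 32, 32.2 and 41.6 in the knockout, a log2 difference of -0.78. All knockout ratios lay below all wild-type ratios, with KO3 the nearest. Ifnar2 reads per 100 of Ifnar1 were 18.2, 17.8 and 17.8 in the wild type and 23.1, 25.8 and 24.8 in the knockout (log2 difference 0.45), again without overlap. Il4ra reads per 100 of Il2rg were 165, 119 and 157 in the wild type and 91.1, 107 and 119 in the knockout, where WT2 and KO3 nearly met.

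Il7r, the interleukin-7 receptor chain and no member of the list, stood at 290.4, 284 and 243 reads per 100 of Il2rg in the wild type and 152, 211 and 157 in the knockout. Il6ra per Il6st, Il21r per Il2rg, Ifngr1 per Ifngr2 and Il10ra per Il10rb overlapped between the groups. The ratios of Il2rb to Il2rg and of Il12rb1 to Il12rb2 did not overlap, and in both KO3 was the highest. Each pair that did not overlap had an exact two-sided permutation p of 0.1, the smallest possible with 3 against 3, and 0.167 after Benjamini-Hochberg adjustment over the 10 pairs. A ratio shows unequal change of its chains and not which one changed, and it was not corrected for transcript length.

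**Figure D4:**
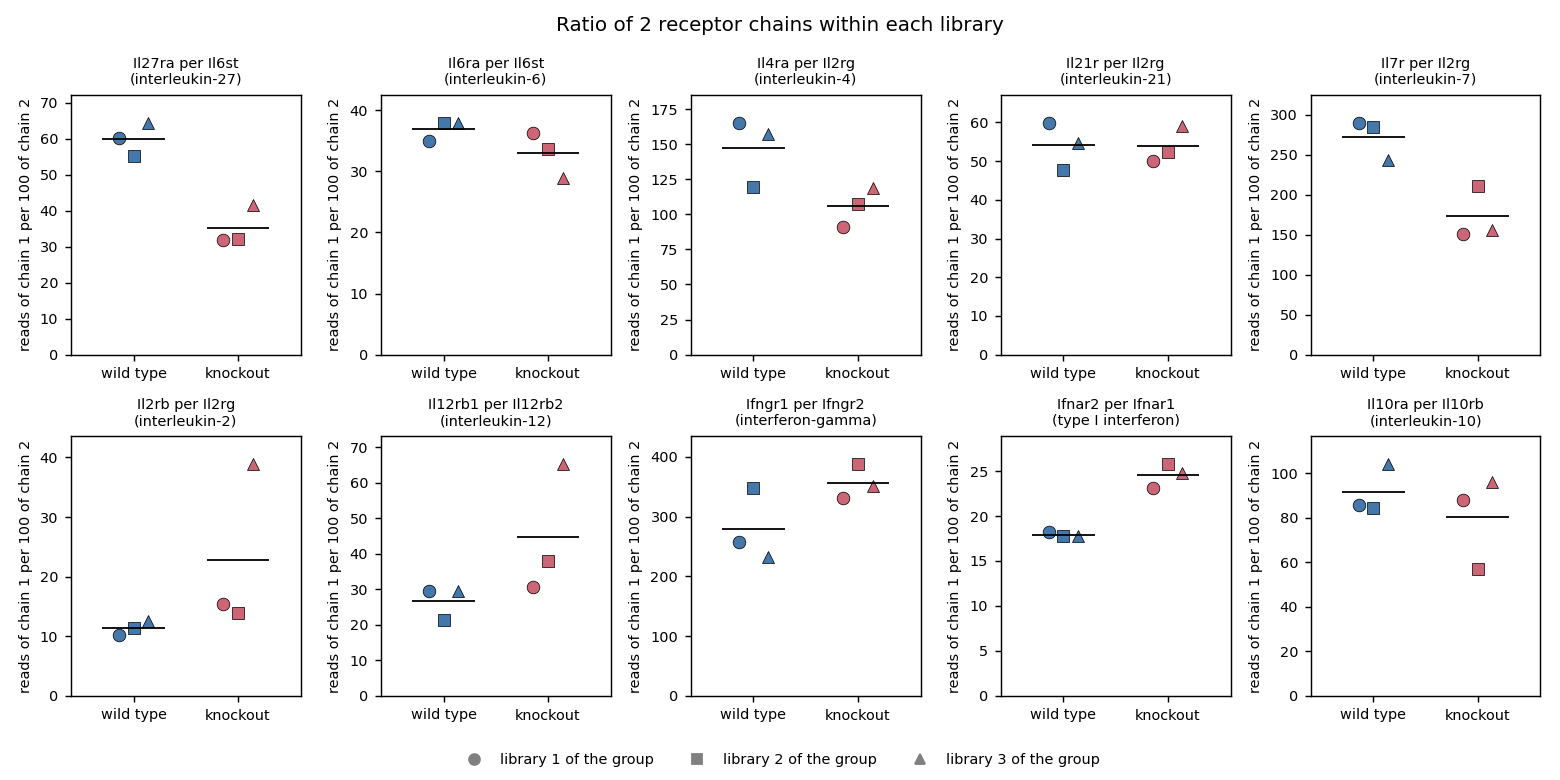
Reads of the first chain per 100 reads of the second chain of 10 receptor pairs in each library (y axis, from 0), wild type in blue and knockout in red, with lines at the group means. The ratios of Ifnar2 to Ifnar1 fall into tight separate groups, and those of Il27ra to Il6st into separate groups with KO3 above the other knockout libraries. In the ratios of Il2rb to Il2rg and Il12rb1 to Il12rb2 the KO3 triangle stands alone.

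Levels of different genes were compared per kilobase of transcript, and only among the 13 members with a single curated RefSeq transcript. Among these 13, Il27ra led in wild-type cells at 4381 ± 72.1 normalized reads per kilobase (SD, n = 3). Stat6 at 3196 ± 133, Ifngr1 at 3163 ± 504 and Il21r at 2928 ± 108 followed. Ifngr1 overlapped both others between libraries, while every Stat6 value lay above every Il21r value. Socs3, at 2701 ± 477, overlapped all 3 and Il6st (2249 ± 149.5), which overlapped Ifnar1 (2173 ± 30.8). Below these came Il17ra (1454 ± 57.0), Il10rb (906 ± 114), Pias1 (770.2 ± 40.4, overlapping Il10rb), Ifngr2 (649 ± 36.0), Il2rb (370.1 ± 52.0) and Il12rb1 (40.4 ± 7.92). In the knockout Il27ra was at 3033 ± 210.2 and Ifngr1 at 4292 ± 435, so Ifngr1 stood above it there. Jak1 and Il2rg, each with 2 curated transcripts and so outside this ranking, stood above Il27ra in the wild type. They were at 9758 ± 740 and 8152 ± 671 (SD, n = 3).

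Genes with several curated transcripts had a lower median value in this table. Over all genes with a messenger RNA row, the median of the mean normalized read count was 312 for 8444 genes with 1 curated transcript, 109 for 3155 with 2 and 100.4 for 3243 with 3 or more. The members with 1 transcript had a median of 7490 (13 genes), those with 2 a median of 413 (12 genes) and those with 3 or more a median of 757 (8 genes). Stat3, Jak3, Tyk2, Socs1, Stat5a, Il15ra and Socs2, all with 2 or more, are among the lowest. How reads shared by transcripts were counted is unknown here and its part was not tested, so a low value of such a gene is not a measure of its total transcript.

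**Figure D5:**
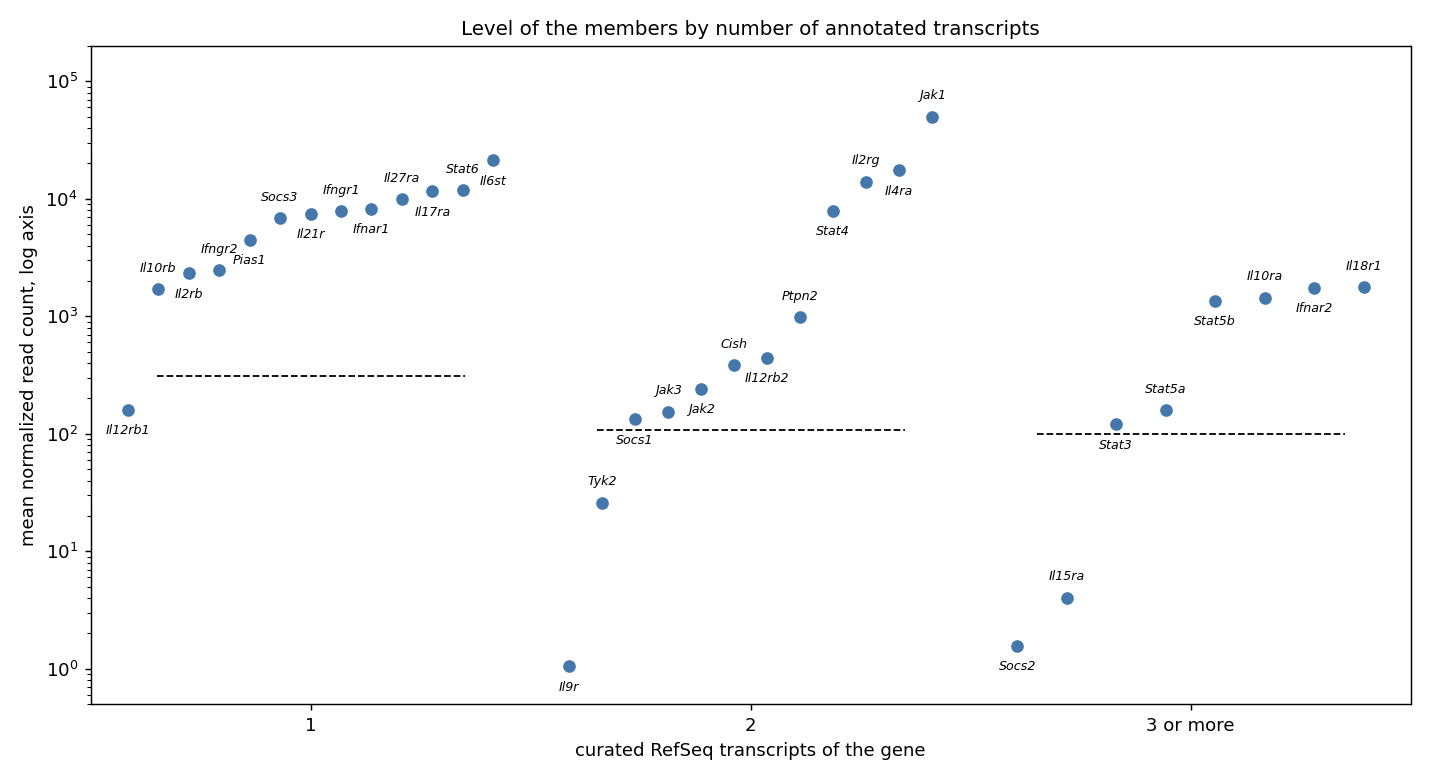
Mean normalized read count over the 6 libraries (y axis, log scale) of the 33 members, placed by the number of curated RefSeq transcripts of the gene, with a dashed line at the median of all genes with that number. Il12rb1 and Il10rb are the lowest of the members with 1 transcript. Those with more reach far lower, down to Il15ra, Il9r and Socs2, and also higher, up to Jak1.

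Other genes of the pathway were read from 4 further lists. Among 39 other cytokine receptor subunits, limma tested 20: Il2ra rose and 19 did not pass, where 1.51% of all tested rows were called. An unadjusted p below 0.05 was reached by 5 of the 20, against 12.7% of all tested rows. Il2ra, which makes the interleukin-2 receptor bind tightly, was at 172, 151 and 188 normalized reads in the wild type and at 358, 373 and 714 in the knockout (log2 fold change 1.43, SE 0.26, adjusted p 0.0326). All knockout libraries lay above all wild-type libraries with KO3 the highest, and without KO3 the log2 fold change was 1.11 (adjusted p 0.0046). Il2ra missed the threshold when WT1, WT2, WT3 or KO2 was removed, and also with voom weights. KO3 was also the highest library for 5 of the 6 regulatory T cell markers, Il2ra among them, and their part in its value was not tested. The median log2 fold change of the tested genes of this list was 0.28, and 0.11 without KO3.

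Il7r, the receptor on which naive T cells depend for survival, was at 36872, 42275 and 32322 normalized reads in the wild type and at 25357, 30019 and 19013 in the knockout, without passing (log2 fold change -0.60, SE 0.17, limma adjusted p 0.175). KO3 was the lowest library. Prlr, the prolactin receptor, was at 54.4, 47.3 and 64.1 in the wild type and at 5.71, 8.74 and 35.9 in the knockout (adjusted p 0.175), and without KO3 it was called (log2 fold change -2.79, adjusted p 0.00259). Il23r, the specific chain for interleukin-23, was nearly unread outside KO3, with 1, 0, 10, 10, 8 and 101 reads in the 6 libraries.

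Of 23 other Stat, Socs, Pias, phosphatase and adaptor genes, limma tested 20: Usp18 rose and 19 did not pass (1.51% of all tested rows were called), and 2 reached an unadjusted p below 0.05 (12.7% of all). Usp18, an interferon-induced protease that also binds the Ifnar2 chain and dampens its signal, was at 2495, 2525 and 2469 normalized reads in the wild type and at 4997, 4987 and 4760 in the knockout. The libraries of each group were nearly equal, KO3 included, and the log2 fold change was 0.98 (SE 0.08, adjusted p 0.000369). Stat2, a factor of the type I interferon signal named beside it, was at 2018 ± 73.0 and 1973 ± 241 (SD, n = 3 per group). Irf9, which binds DNA together with Stat2, was at 198 ± 10.6 and 158 ± 16.2 (log2 fold change -0.33, unadjusted p 0.0533). Shc1, an adaptor, was at 290.4 ± 88.3 and 193 ± 30.7, and Socs5 at 731 ± 107 and 921 ± 141. The median log2 fold change of the list was -0.01.

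Of 24 genes known as Stat targets in T cells, 20 were tested and limma called 0, against 1.51% of all tested rows, while 4 reached an unadjusted p below 0.05, against 12.7% of all tested rows, each of the 4 higher in the knockout. These were Ctla4 (141 ± 14.1 and 201 ± 32.6), Gata3 (1069 ± 146 and 1472 ± 318), Bcl6 (831 ± 167 and 1153 ± 217) and Lta (502 ± 36.3 and 601 ± 35.9; SD, n = 3 per group). The median log2 fold change of the list was 0.19, and 0.06 without KO3, where Gata3 alone was called (adjusted p 0.0401). Of 25 genes of the cytokines themselves, only Ifng reached a mean of 10 normalized reads, at 9, 3, 37, 6, 9 and 206 reads in the 6 libraries, most of them in KO3.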

How the data were processed

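RNA of 3 wild-type and 3 knockout libraries was read as 100 bp pairs, per the labels' protocols. STAR, HTSeq, DESeq2 and mm10 are named in the submitters' processing notes, without versions or roles. The authors deposited 1 table of 19048 rows on a log10 scale, found from its values: after undoing the log and subtracting 1, 100% were whole numbers of reads within 0.01 once divided by a library's step. Values here are those normalized read counts. RefSeq (GRCm38.p6) named 18811 rows and GENCODE M21 a further 104, and 133 had no name. Limma 3.58.1 in R 4.3.3 was fitted on log2 of the value plus 1, with no covariate and the empirical Bayes trend, over rows with a mean of at least 10. The fit was checked on simulated counts. Named genes are Trim28, the 33 members and, from each pathway list, the called genes and up to 4 of smallest p; genes named for position or as partners were added after their values were seen. Members and lists were chosen with earlier results of these data known. Alternatives were the pseudocount, filter, scaling, variance model, voom weights on recovered reads, a replicate block, summed rows, Y-linked reads as a covariate, other thresholds and leaving out each library. Whether the replicate numbers pair the samples could not be read from the labels, and the main fit did not pair them. Depth was 22005759 to 44372701 reads per library, and strandedness is not recorded in the labels.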

Additional observations from a re-analysis of the deposited data

How the results depend on the processing

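Of the 21 alternatives, 13 kept the call of Il27ra and 8 lost it, with a fitted log2 fold change between -0.57 and -0.47 and adjusted p from 0.00877 to 0.394. With libraries scaled to the same total, 0 members were called (Il27ra adjusted p 0.0561). Without the mean-variance trend, 0 members, 1 pathway gene and 124 of all rows were called, and at an adjusted p under 0.01 the counts were 0, 1 and 111. At an adjusted p under 0.1, 2 members passed, Ifnar2 with Il27ra, against 2.25% of all rows. Voom weights and Y-linked reads as a covariate each left 1 pathway gene, Usp18, and kept Il27ra (adjusted p 0.0251 and 0.0271). Among the 4 libraries with under 10 Y-linked reads, added after the data were seen, 0 members, 0 pathway genes and 33 rows were called. Leaving out each library in turn gave 0 to 1 members, 1 to 5 pathway genes and 114 to 562 rows, the highest without KO3; rows numbered 124 without WT1, 127 without WT3 and 114 without KO2. Without KO3 the pathway genes were Il2ra, Usp18, Gata3, Grb2 and Prlr. Il2ra was not called once any of WT1, WT2, WT3 or KO2 was removed. With the replicate block 1 member, 3 pathway genes (Il7r added) and 175 rows were called. Deviations of same-numbered libraries correlated at -0.31, 0.26 and 0.36, and those of differently numbered ones at -0.44 to 0.37. With so few libraries these values cannot decide whether the numbers pair the samples. No called member changed sign, and 9 members with a fitted change of at most 0.11 did in some setting. No library group exceeded 3, so no formal search for outlying libraries was made. KO3 was set apart on its marker sums in these same data, and the fits without it rest on that choice. Il15ra, Il9r and Socs2 were too shallow to test.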
